A study of Homo sapiens with 8 samples.

Results

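Accessible chromatin far from protein-coding genes was described in HUDEP-2 cells as 2534 regions out of 43654 regions in all. Peaks from the 4 sgControl ATAC-seq libraries were merged wherever they shared 1 bp, and the summit of a region was taken from its peak of highest percentile rank. A region was kept as far intergenic if it lay on chromosomes 1 to 22, its summit was over 100 kb from every protein-coding start site (GENCODE release 44 on GRCh37) and the summit fell outside every protein-coding gene body. No measured accessibility entered the choice other than the calling of the peaks and the pick of the summit. The far intergenic regions were 5.95% of the 42570 autosomal regions. For comparison, 10293 intergenic regions had their summit over 1 kb and up to 100 kb from a protein-coding start site, and these are called nearer intergenic regions.

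HUDEP-2 is an immortalized human erythroid progenitor line derived from umbilical cord blood and is kept with doxycycline, erythropoietin, stem cell factor (SCF) and dexamethasone. All 4 libraries came from HUDEP-2 cells that carried a scrambled guide RNA (sgControl) and KRAB-dCas9, a catalytically dead Cas9 fused to a repressor domain, delivered by lentivirus under the EF1a promoter and sorted by GFP. The cells were starved for 5 h and then given either SCF at 50 ng/ml or the vehicle PBS for 1 h, with 2 biological replicates per treatment and 50000 cells per library. ATAC-seq cuts open chromatin with a transposase, and the comparison of SCF with PBS asks where accessibility changed soon after the Kit receptor was engaged. The stimulated and unstimulated cells were all from 1 cell line, so the replicate spread is that between cultures of the same line.

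Regions of this kind hold distal enhancers, insulator sites and the start sites of long non-coding RNAs. In erythroid cells, distal enhancers are commonly bound by GATA1 together with TAL1, whereas CTCF binds insulators and loop anchors. SCF acts through the receptor tyrosine kinase Kit, and MAP kinase signaling below it raises the activity of AP-1, a dimer of FOS and JUN proteins, and of the EGR zinc finger factors.

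The 4 peak lists held 30240 (PBS replicate 1), 33616 (PBS replicate 2), 29269 (SCF replicate 1) and 33324 (SCF replicate 2) peaks. Read totals were not given. The median number of fragments or read ends over a summit, recovered from the deposited fold enrichment and −log10 p-value of each peak, was between 20 and 27 in the 4 libraries, and the replicates numbered 2 in the sample labels held more peaks under both treatments. The erythroid marker genes KLF1, GATA1, TAL1, EPOR, KIT, GFI1B, HEMGN, TFRC and NFE2 had a peak at a start site in all 4 libraries and ALAS2 in 1. Among markers of other cell types, TCF7, SPI1 and GFAP had such a peak in all 4 libraries and PAX5 in 1, while MS4A1, CD3E, CD3D, MPO, CSF1R, ALB, APOA1 and NEUROD1 had none. A peak at a start site shows accessibility and not expression.

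The sequences below are 201-bp windows centred on the summits of the far intergenic regions that the results turn on, read from GRCh37/hg19 on the + strand, with motif words in capitals. The motifs were sought on both strands as the word TGANTCA for AP-1, as the word AGATAA for GATA, for which the variant spelled TGATAA also counted, and as the consensus patterns of CTCF and of the composite TAL1-GATA site, whose GATA letters overlap the GATA word. Capitals mark AP-1, GATA and CTCF words only. The first 3 windows belong to the region with the widest rank gain under SCF and to 2 of the 3 highest-ranked regions found only with SCF. All 3 hold an AP-1 word, but they are picked examples. An AP-1 word was held by 7 of all 28 rank gains and by 17 of all 53 SCF-only regions.
Rank gain, nearest SFMBT2 (chr10:7070270-7070470): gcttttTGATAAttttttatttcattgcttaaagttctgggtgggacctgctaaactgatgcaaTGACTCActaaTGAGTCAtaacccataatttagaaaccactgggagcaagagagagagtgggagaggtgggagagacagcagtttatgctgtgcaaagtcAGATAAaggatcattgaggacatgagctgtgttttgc
SCF-only, nearest RNF144B (chr6:18585400-18585600): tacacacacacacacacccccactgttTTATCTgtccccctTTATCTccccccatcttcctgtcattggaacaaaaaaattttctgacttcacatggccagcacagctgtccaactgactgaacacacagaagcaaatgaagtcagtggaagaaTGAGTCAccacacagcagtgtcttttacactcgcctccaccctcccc
SCF-only, nearest CELF4 (chr18:36030916-36031116): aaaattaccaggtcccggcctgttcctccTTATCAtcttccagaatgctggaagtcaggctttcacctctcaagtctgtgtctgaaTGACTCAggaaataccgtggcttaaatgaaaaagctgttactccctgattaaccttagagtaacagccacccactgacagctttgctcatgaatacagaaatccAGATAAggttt
The next 3 windows come from the 2 regions with the widest rank losses under SCF and from a region found only with PBS. They hold no AP-1 word, and the first of them holds no word in capitals at all. These are picked examples too, since 3 of all 40 rank losses and 9 of all 81 PBS-only regions held an AP-1 word.
Rank loss, nearest ZNF217 (chr20:52367603-52367803): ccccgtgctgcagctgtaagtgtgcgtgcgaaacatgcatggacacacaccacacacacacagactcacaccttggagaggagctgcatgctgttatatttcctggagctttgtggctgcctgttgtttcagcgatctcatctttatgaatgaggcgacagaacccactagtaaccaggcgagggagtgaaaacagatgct
Rank loss, nearest TNC (chr9:118158546-118158746): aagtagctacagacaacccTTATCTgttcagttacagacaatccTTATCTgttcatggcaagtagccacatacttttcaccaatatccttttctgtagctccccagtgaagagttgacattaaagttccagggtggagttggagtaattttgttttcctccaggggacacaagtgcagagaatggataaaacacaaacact
PBS-only, nearest P2RY1 (chr3:152694097-152694297): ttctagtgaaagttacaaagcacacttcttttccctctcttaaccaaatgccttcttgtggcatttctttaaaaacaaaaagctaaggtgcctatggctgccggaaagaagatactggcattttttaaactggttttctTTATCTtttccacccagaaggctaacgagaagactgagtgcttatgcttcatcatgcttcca
The last set shows 1 region called in all 4 libraries for each of AP-1, GATA, TAL1-GATA and CTCF, of high mean rank among regions with that motif. The CTCF region had ranks of only 63.4 and 82.5 with PBS and 65.6 and 81.9 with SCF. The top region near ZEB2, described further on, is shown too.
AP-1, nearest FRK (chr6:116012776-116012976): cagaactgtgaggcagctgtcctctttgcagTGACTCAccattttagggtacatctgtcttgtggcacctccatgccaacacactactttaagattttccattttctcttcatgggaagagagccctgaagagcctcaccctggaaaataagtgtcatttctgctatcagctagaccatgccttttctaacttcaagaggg
GATA, nearest GRIN3A (chr9:104603162-104603362): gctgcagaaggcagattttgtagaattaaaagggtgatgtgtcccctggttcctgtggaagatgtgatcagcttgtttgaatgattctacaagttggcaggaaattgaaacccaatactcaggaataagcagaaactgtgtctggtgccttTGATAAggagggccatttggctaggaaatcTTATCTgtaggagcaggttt
TAL1-GATA and AP-1, nearest KIZ (chr20:20927070-20927270): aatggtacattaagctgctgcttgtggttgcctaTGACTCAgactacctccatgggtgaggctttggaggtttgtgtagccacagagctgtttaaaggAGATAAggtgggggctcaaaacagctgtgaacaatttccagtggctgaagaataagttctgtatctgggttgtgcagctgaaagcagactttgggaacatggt
CTCF, nearest BUD13 (chr11:116147327-116147527): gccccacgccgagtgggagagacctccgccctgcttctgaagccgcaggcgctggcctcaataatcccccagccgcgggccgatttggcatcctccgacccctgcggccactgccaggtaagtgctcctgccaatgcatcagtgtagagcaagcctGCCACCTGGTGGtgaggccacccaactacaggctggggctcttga
AP-1 and GATA, nearest ZEB2 (chr2:146450762-146450962): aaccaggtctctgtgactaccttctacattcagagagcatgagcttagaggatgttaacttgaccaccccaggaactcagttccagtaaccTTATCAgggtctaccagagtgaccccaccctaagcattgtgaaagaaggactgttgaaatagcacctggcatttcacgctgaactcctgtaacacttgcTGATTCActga

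Far intergenic regions were found on all 22 autosomes. Their share of a chromosome's regions went from 0.638% (17 regions) on gene-dense chromosome 19 to 11.8% (333 regions) on chromosome 6, and was 11.3% on chromosome 8 and 10.9% on chromosome 13. The median distance to the nearest protein-coding start site was 196 kb, with quartiles at 133 and 345 kb. The greatest distance was 2159 kb, at a region on chromosome 18 (chr18:37376413-37376761) nearest PIK3C3, the class III phosphoinositide 3-kinase, and it was called in PBS replicate 2 alone. Its neighbour chr18:37379337-37380295 was called in all 4 libraries, with pileups of 12 and 14 with PBS and 9 and 6 with SCF. The regions were between 228 and 2932 bp wide (median 488 bp). Median GC content of the 201-bp windows was 46.8%, against 51.2% in nearer intergenic regions and 67.7% at promoters (summits within 1 kb of a protein-coding start site), and the median CpG observed-to-expected ratio was 0.212, 0.271 and 0.833 in the same order. Regions over 100 kb from a start site inside gene bodies had 45.3% and 0.193. Windows far from start sites were thus the poorer in GC and CpG, intergenic or not, which bears on each motif share given further on.

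Most far intergenic regions were not called in every library. Peaks were present in 1 library at 940 regions (37.1%), in 2 at 378 (14.9%), in 3 at 315 (12.4%) and in all 4 at 901 (35.6%, 95% Wilson interval 33.7 to 37.4%). The same interval was 39.4 to 41.3% for the nearer intergenic regions, of which 40.3% were called in all 4, and 82.6% of promoter regions were. Intervals of this kind cover counting error only, since regions of 1 set of libraries are not replicates.

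**Figure D1:**
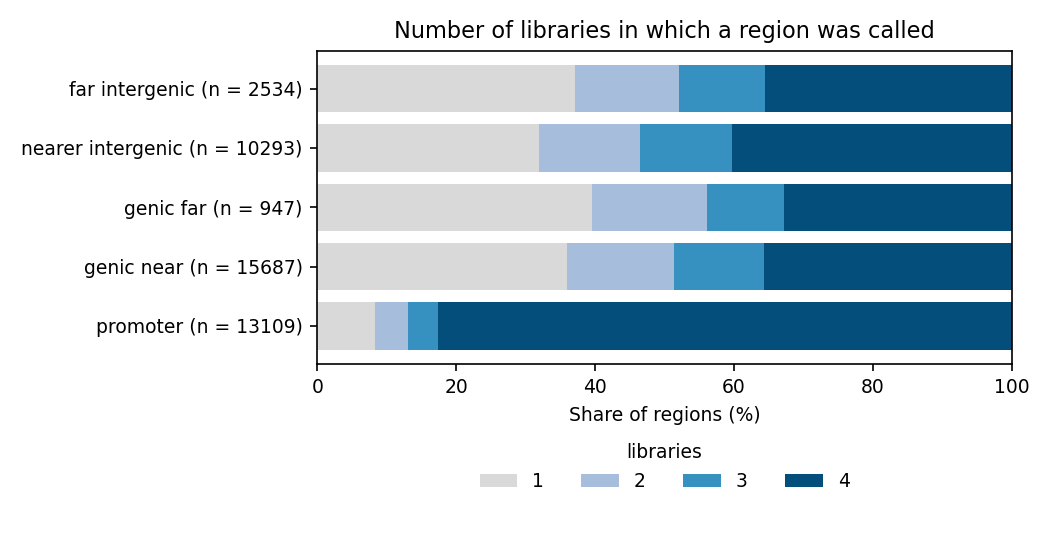
Share of regions (percent, bar chart from 0) called in 1, 2, 3 or all 4 sgControl libraries, for far and nearer intergenic regions, promoters, and regions inside protein-coding gene bodies over 100 kb (genic far) or up to 100 kb (genic near) from a start site. Of the far intergenic regions, 35.6% were called in all 4 libraries and 37.1% in 1, whereas 82.6% of promoter regions were called in all 4.

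Repeatability was measured as the share of a library's far intergenic peaks that overlapped a peak of the other library of the same treatment. With PBS it was 79.6% (replicate 1) and 66.7% (replicate 2), and with SCF it was 82.3% and 62.9%. The replicates numbered 2, with more peaks, had the lower shares. In nearer intergenic peaks the shares were 83.0, 71.3, 79.9 and 68.7% in the same order. The difference of far from nearer intergenic peaks was -2.82 ± 3.66 percentage points (SD, n = 4 libraries), negative in 3 libraries and +2.46 in SCF replicate 1, and was not larger than the spread between libraries (two-sided exact sign-flip permutation p = 0.25, adjusted p = 0.25 over 4 such tests, smallest p possible 0.125). It was -4.93 when nearer intergenic peaks were weighted to the ranks of the far ones. With a −log10 q-value of at least 5 it was -1.13, and with equal numbers of peaks per library it was -1.99. Leaving out 1 library leaves its treatment without a pair, so the value then rests on the libraries of the other treatment alone. It was -1.69 and -1.68 without PBS replicate 1 or 2, and -3.94 and -3.97 without SCF replicate 1 or 2.

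Whether a far intergenic peak was found again went with its rank. Ranks are the percentile of fold enrichment within a library, with 100 the highest. Of far intergenic peaks ranked up to 20, 36.9% ± 14.1 (SD, n = 4 libraries) were found again, and the share was 61.5% ± 15.9 in ranks 20 to 40, 84.4% ± 9.68 in ranks 40 to 60, 96.4% ± 3.84 in ranks 60 to 80 and 99.4% ± 0.526 above rank 80. Nearer intergenic peaks gave 47.0, 68.2, 87.8, 98.1 and 99.8% in the same bins. The mean of the far intergenic peaks was the lower in each of the 5 bins, and the gap closed towards the high ranks.

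**Figure D2:**
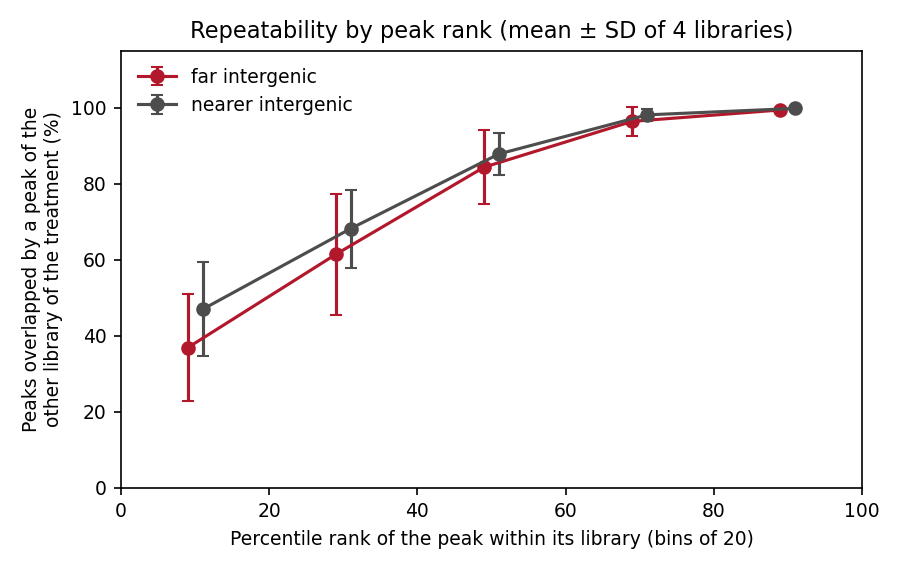
Percent of peaks found in the other library of the same treatment (y axis) in 5 bins of percentile rank (x axis) for far and nearer intergenic peaks, with the mean and SD over 4 libraries. The far intergenic mean went from 36.9% in the lowest bin to 99.4% in the highest.

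The far intergenic peaks had a higher median rank than the nearer ones in 4 of 4 libraries. Their median ranks were 43.3 and 43.1 with PBS and 43.3 and 43.7 with SCF, whereas nearer intergenic peaks had 39.6, 39.9, 39.0 and 40.7. Median summit pileups, the number of fragments or read ends over the summit (the deposited values do not tell which), were 14, 17, 14 and 13, below the 16, 19, 16 and 15 of nearer intergenic peaks and the 23, 27, 23 and 20 of all peaks. A fold enrichment divides the pileup by a local background, so a high rank and a modest pileup can go together. Pileups here and further on are counts not scaled between libraries. Equal counts in 2 libraries are thus not equal signal, and overlap or separation of pileups between treatments is a description only. Over the 901 regions called in all 4 libraries, ranks of any 2 libraries had Spearman correlations between 0.761 and 0.811, which are given as a description across regions that share libraries.

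Repeated or poorly assembled sequence lay under several of the far intergenic regions of highest rank. Among all 2534, 185 (7.30%) had a window with another copy elsewhere in the genome (at least 90% identity over 90% of the window), 107 (4.22%) lay within 100 kb of an assembly gap and 231 (9.12%) met either condition. Among the 50 of highest mean rank, 12 (24%, 14.3 to 37.4%) did. The first of these, chr21:9826750-9827187, had summit pileups of 1279, 1781, 1078 and 895 (PBS replicates 1 and 2, then SCF replicates 1 and 2), lay 1466 bp from a gap and was 84.6% GC. The region chr1:121484401-121485439, 202 bp from a gap, had the highest pileups, 3133, 5644, 2681 and 2393. The region chr19:27731921-27732324 had 194, 323, 145 and 126 and lay 316 bp from a gap, and chr10:42384931-42385696 had 130, 213, 114 and 69 and 8 placements in the genome. These 4 regions ranked at or near the top in every library, and how reads were shared between copies was not given.

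The copy search gave a lower bound. The window of chr5:69696804-69697446, nearest SMN2 (survival motor neuron 2), was placed at 1 site, yet it shared an exact run of 57 bp with the window of the far intergenic region chr5:21341509-21342225, nearest the cadherin gene CDH18 and called only with PBS. The pileups of the SMN2 region were 90 and 58 with PBS and 55 and 59 with SCF, and those of the CDH18 region were 14 and 21 with PBS with no peak under SCF. The 2303 regions with neither a copy nor a gap were called in all 4 libraries at 35.0%, close to the 35.6% of all far intergenic regions.

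Regions with no copy or gap also reached the highest ranks. At chr9:104602979-104603561, nearest the NMDA receptor subunit gene GRIN3A, pileups were 67, 105, 50 and 85 and the ranks 99.4, 99.8, 98.2 and 99.9. Its window, printed above, holds a pair of GATA words. At chr6:116012657-116013303, nearest the tyrosine kinase gene FRK, pileups were 65, 100, 57 and 72, with an AP-1 word. The region chr13:34116404-34117363, nearest the GTPase-activating protein gene STARD13, had 158, 221, 160 and 139, and chr1:224180031-224180748, nearest FBXO28, had 108, 178, 139 and 108 and a CRE word (TGACGTCA). The last of these lay 121 kb from the FBXO28 start but 47 bp from a non-coding start site, in a window of 65.7% GC. In these 4 regions the PBS and SCF pileups overlapped. The ranks overlapped too, except at the STARD13 region, with 96.5 and 97.8 under PBS and 99.2 and 98.9 under SCF.

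Non-coding genes lay under many far intergenic regions. The body of a non-coding gene held 1033 (40.8%) of them, against 25.4% of nearer intergenic regions, and 289 (11.4%) lay within 1 kb of a non-coding start site, against 11.8%. The 289 near such a start were called in all 4 libraries at 55.7% (49.9 to 61.3%) and the other 2245 at 33.0% (31.0 to 34.9%). The median GC content was 57.2 and 45.8% and the GATA share 19.7 and 45.9% in the same order. The far intergenic regions at non-coding starts thus had the higher GC content and share called in every library and the lower GATA share. Pseudogenes held 67 regions (2.64%) and immunoglobulin or T cell receptor loci 33 (1.30%), and no window matched mitochondrial DNA.

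GATA words were the most common of the 12 motifs searched, but at 6 bp they were also the shortest, so shares are not comparable between motifs. They were held by 42.9% of far intergenic windows, against 28.6% of nearer intergenic and 25.4% of all autosomal windows. An AP-1 word was held by 13.7, 10.4 and 8.47%, a TAL1-GATA pattern by 8.60, 4.79 and 4.07%, a RUNX word (TGTGGTT) by 5.49, 4.46 and 4.14% and a CTCF pattern by 2.17, 4.21 and 2.35%. The 947 regions over 100 kb from a start site but inside a protein-coding gene body had shares like the far intergenic ones, with GATA at 45.8% (42.7 to 49.0%), AP-1 at 12.6%, TAL1-GATA at 7.18%, RUNX at 6.86% and CTCF at 3.06%. In 165 windows (6.51%) AP-1 and GATA words stood together, 309 held 2 GATA words and 82 held 3 or more, and 1034 (40.8%) held none of the 12 motifs. The EGR word (GCGTGGG) was in 47 windows, or 1.85%, against 2.76% of nearer intergenic and 3.79% of all autosomal windows. The KLF word (CCACACCC) was in 3.12%, the STAT word (TTCCNNGAA) in 3.35%, the NF-E2 word in 1.38%, the SRE pattern in 1.14%, the ETS word (CCGGAAGT) in 0.395% and the CRE word in 0.316%, against 3.12, 2.79, 0.914, 0.918, 1.47 and 0.679% of all autosomal windows. A match is a word in the sequence and not evidence that a factor was bound.

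The motif differences were seen in each library. Among far intergenic peaks GATA shares were 45.2% (PBS replicate 1), 43.7% (PBS replicate 2), 47.2% (SCF replicate 1) and 46.8% (SCF replicate 2), against 28.8, 29.3, 29.8 and 30.0% of nearer intergenic peaks. AP-1 shares were 12.4, 12.5, 16.2 and 15.3%, against 9.36, 9.38, 11.1 and 11.3%. CTCF shares were 2.04, 1.65, 2.05 and 1.56%, against 4.20, 3.89, 4.42 and 4.67%. Far intergenic peaks thus held GATA and AP-1 words more often, and CTCF patterns less often, in 4 of 4 libraries. The differences were 16.3 ± 1.28 (GATA), 3.83 ± 0.926 (AP-1) and -2.47 ± 0.435 (CTCF) percentage points (SD, n = 4 libraries), each with an exact sign-flip permutation p of 0.125, the smallest that 4 libraries can give, and an adjusted p of 0.167 over 4 tests, so that no difference could pass 0.05. With 50 and 250 bp on each side of the summit, in place of 100, the AP-1 difference was 1.65 and 5.79 and the CTCF difference -0.778 and -5.17.

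GC content moved with these shares. In an alternative added after the data were seen, when nearer intergenic peaks were weighted to the GC content of the far intergenic peaks, the GATA difference was 8.58, the AP-1 difference 2.69 and the CTCF difference -1.84 percentage points. Within each of 5 GC bins, from low to high, mean GATA shares were 61.1, 64.0, 52.8, 40.0 and 15.6% in far intergenic peaks and 53.2, 52.3, 44.4, 30.0 and 9.83% in nearer ones. The GATA share of the far intergenic peaks was the higher in every bin, and the weighting brought the difference from 16.3 to 8.58.

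**Figure D3:**
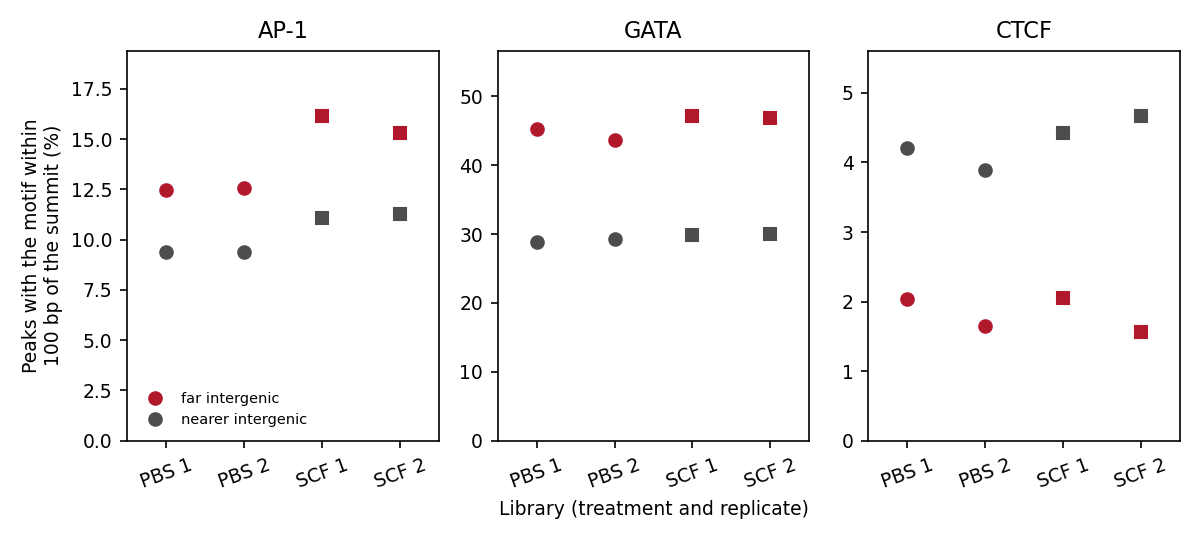
Percent of far and nearer intergenic peaks whose 201-bp window holds an AP-1 word, a GATA word or a CTCF pattern (y axis), in each of the 4 libraries (x axis). GATA shares were between 43.7 and 47.2% in far intergenic peaks and between 28.8 and 30.0% in nearer ones.

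GATA and AP-1 words were denser near the summits than far from them. In far intergenic regions there were 80.1 GATA words per 25 bp and 1000 regions within 50 bp of the summit and 34.0 beyond 400 bp, a ratio of 2.36. Nearer intergenic regions had 50.3 and 24.5, a ratio of 2.05. The far intergenic regions thus held more GATA words beyond 400 bp as well. For AP-1 the far intergenic values were 17.8 and 7.79, a ratio of 2.28, against 13.9 and 6.76, a ratio of 2.06, in nearer regions. AP-1 words were densest beside the summit, with 44 and 43 in the central bins of 25 bp, 57 in the bin centred at -87.5 bp and 55 in that at 112.5 bp. CTCF patterns also stood beside the summit, with 2 and 3 in the central bins and 17 in each of the bins centred at -162.5 and 137.5 bp, so that a window of 100 bp on each side leaves part of them out.

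**Figure D4:**
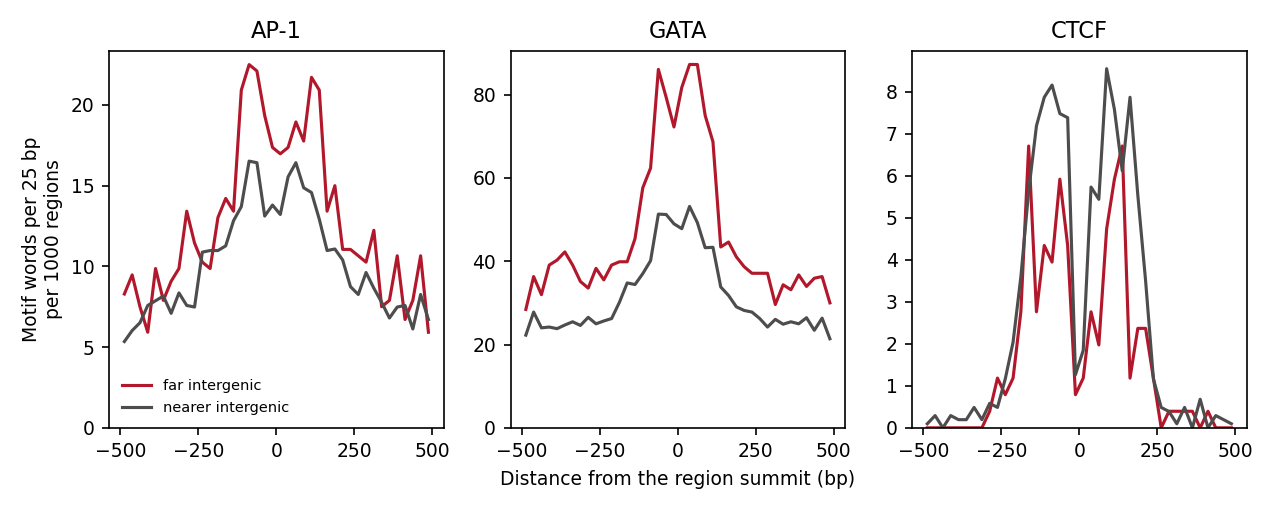
Motif words per 25 bp and 1000 regions (y axis) against the distance from the summit in bp (x axis), for far and nearer intergenic regions. The GATA density of far intergenic regions was 80.1 within 50 bp of the summit and 34.0 beyond 400 bp, and AP-1 words and CTCF patterns had their highest bins on either side of the summit.

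The motif content of far intergenic regions went with how many libraries called them. GATA shares were 35.3, 40.7, 48.6 and 49.7% in regions called in 1, 2, 3 and 4 libraries, and TAL1-GATA shares were 5.00, 6.88, 7.62 and 13.4%. AP-1 shares were 12.7, 15.3, 14.6 and 13.9%, with no such order, and CTCF shares were 2.55, 2.91, 3.49 and 0.999%. Of the 901 regions called in every library, 9 held a CTCF pattern, and the highest-ranked of them, chr11:116147199-116147626, nearest the splicing factor gene BUD13, had pileups of 18 and 33 with PBS and 20 and 22 with SCF. Among the 901, TAL1-GATA shares went from 8.85% in the lowest of 4 equal groups by mean rank through 11.1 and 12.4% to 21.3% (16.5 to 27.1%) in the highest, whereas GATA shares were 38.5, 57.3, 51.6 and 51.6%. The region chr20:20926878-20927551, nearest the centrosome gene KIZ and printed above, had the highest rank of those with the composite pattern, with pileups of 50, 61, 35 and 56.

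Over distance within the far intergenic regions, GATA shares had no single direction and are given as a description. They were 37.9% of 1298 regions over 100 to 200 kb from a start site, 47.2% of 850 at 200 to 500 kb, 52.9% of 255 at 500 to 1000 kb and 45.0% of 131 beyond 1000 kb, and the median GC content was 48.3, 45.8, 43.8 and 42.3%. The share called in all 4 libraries was 36.1, 33.4, 38.4 and 38.9%. At the limit itself, 213 regions at 100 to 110 kb were called in all 4 at 30.5% and held a GATA word at 28.2% and an AP-1 word at 12.2%, and 252 intergenic regions at 90 to 100 kb, just outside the limit, had 36.1, 32.9 and 10.3%.

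The number and the mean rank of the far intergenic peaks differed between SCF and PBS by less than the replicate spread. Their share of all autosomal peaks was 4.99 and 5.35% with PBS (1470 and 1753 peaks) and 4.62 and 5.33% with SCF (1318 and 1728 peaks), a difference of -0.199 percentage points (exact permutation p = 0.667, adjusted p = 0.833 over 10 treatment tests, smallest p possible 0.333). The mean rank of the 901 regions called in all 4 libraries was 57.0 and 62.3 with PBS and 54.5 and 62.8 with SCF, a difference of -1.06 (exact permutation p = 1, adjusted p = 1). With equal numbers of peaks per library it was -0.220. In both measures the PBS and SCF values overlapped, and replicate 1 was below replicate 2 under both treatments. In such bulk libraries a change in the share of cells with an open site and a change in openness per cell cannot be told apart.

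The AP-1 share did not overlap between treatments. The 2 SCF libraries had 16.2 and 15.3% of far intergenic peaks with an AP-1 word and the 2 PBS libraries 12.4 and 12.5%, so that SCF was higher by 3.22 percentage points (exact permutation p = 0.333, the smallest possible with 2 libraries against 2, adjusted p = 0.556). With 50 bp on each side of the summit the difference was 1.78. In nearer intergenic peaks the SCF libraries were higher by 1.80, and the difference between the classes was 1.42 (exact permutation p = 0.333, adjusted p = 0.556). GATA shares with SCF were also above both PBS values, by 2.54 percentage points in far and 0.864 in nearer intergenic peaks, with the same p-values, but with 250 bp on each side of the summit in place of 100 the GATA difference was -0.527. No difference between treatments could pass 0.05 with these numbers of libraries.

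Within the 901 regions called in every library, regions with and without an AP-1 word differed in how SCF and PBS ranks compared. The 125 that held an AP-1 word had mean ranks of 56.1 and 62.5 with PBS and 57.9 and 67.7 with SCF, and the 776 without it had 57.2 and 62.3 with PBS and 53.9 and 62.0 with SCF. The mean rank with AP-1 minus that without was -1.08 and 0.202 with PBS and 3.94 and 5.79 with SCF, values that did not overlap. SCF minus PBS was 5.31 rank points (exact permutation p = 0.333, the smallest possible, adjusted p = 0.556), and the same quantity was 5.72 in nearer intergenic regions. For GATA words the 4 values were 2.22 and 2.81, then 3.27 and 6.22, which did not overlap either (SCF minus PBS 2.24, exact permutation p = 0.333, adjusted p = 0.556). RUNX words (53 regions, -2.86 and -0.440, then 0.369 and 1.40) and KLF words (28 regions, -0.509 and 1.20, then 2.03 and 4.52) did not overlap either. Their differences were 2.54 and 2.93 (exact permutation p = 0.333 each, not adjusted and not among the 10 treatment tests). For TAL1-GATA the values were 6.94 and 6.73, then 6.41 and 9.82, which overlapped. CTCF values, from 9 regions, overlapped too (-5.39 and 6.92, then -0.291 and -3.73).

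**Figure D5:**
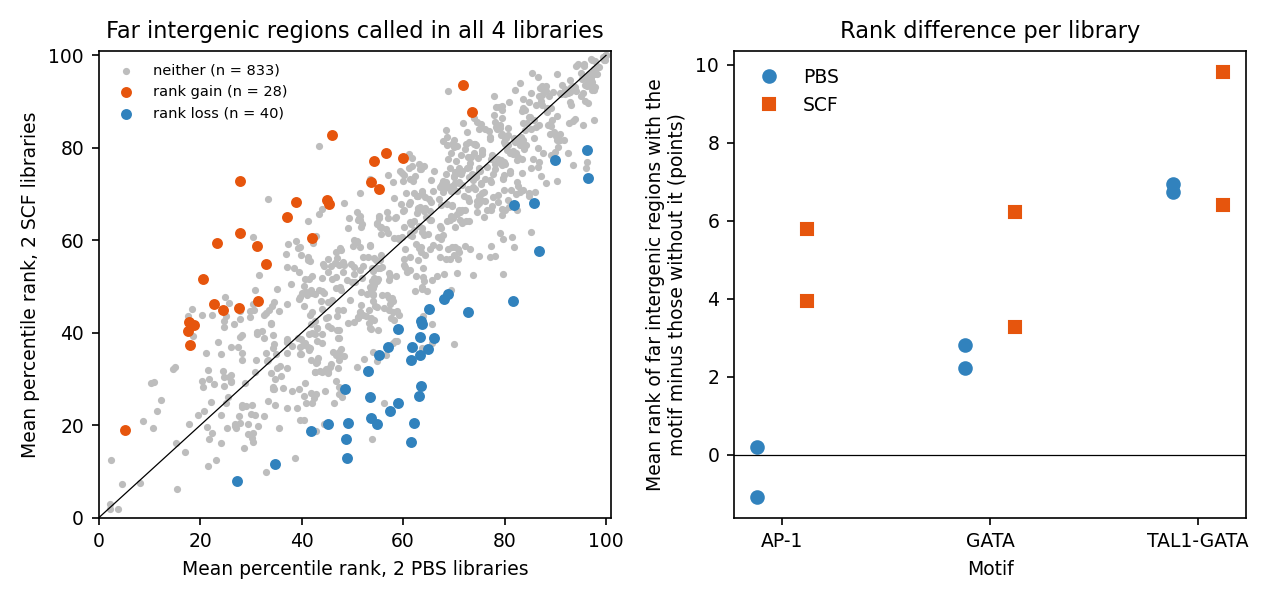
Left, the mean percentile rank with SCF (y axis) against that with PBS (x axis) for the 901 far intergenic regions called in all 4 libraries, with the 28 rank gains and 40 rank losses marked. Right, the mean rank of regions with a motif minus that of regions without it (rank points) in each library, where the AP-1 values were -1.08 and 0.202 with PBS and 3.94 and 5.79 with SCF.

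Few far intergenic regions were called under 1 treatment only. A peak in SCF replicates 1 and 2 with none under PBS (SCF-only) was found at 53 regions (2.09%), against 1.65% of all 43654 regions. The converse (PBS-only) was found at 81 regions (3.20%), against 2.37%. In nearer intergenic regions the shares were 1.99% (SCF-only) and 2.99% (PBS-only). An absent peak means that no peak passed the caller's threshold and not that accessibility was 0. Of the 53 SCF-only regions, 17 (32.1%, 21.1 to 45.5%) held an AP-1 word, against 9 of the 81 PBS-only regions (11.1%, 5.96 to 19.8%) and 13.7% of all far intergenic regions. GATA words were held by 35.8 and 39.5%.

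The SCF-only regions named here hold the AP-1 words printed above. The region chr6:18585143-18585760, nearest the ubiquitin ligase gene RNF144B, had pileups of 16 and 18 in the SCF libraries, at ranks 58.2 and 63.3. The region chr18:36030782-36031125, nearest the RNA-binding protein gene CELF4, had 12 and 15, at ranks 43.9 and 64.2. These pileups are near the median of all far intergenic peaks. Of the PBS-only regions, chr3:152693904-152694406, nearest the ADP receptor gene P2RY1, had 13 and 20 with PBS, and chr8:43820996-43821247, nearest the lysosomal acetyltransferase gene HGSNAT, had 18 and 16 and lay in sequence with 21 placements in the genome.

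Rank gains and losses were counted over the 901 regions with a peak in all 4 libraries. A gain, with both SCF ranks at least 10 points above both PBS ranks, was found at 28 (3.11%), against 2.55% of the 22398 regions called in all 4 over the genome, and a loss at 40 (4.44%), against 3.04%. With no minimum gap, both SCF ranks were above both PBS ranks at 133 regions (14.8%), against 16% in all regions, and both PBS ranks were above both SCF ranks at 163 (18.1%), against 19.3%. In nearer intergenic regions 3.95% gained and 4.24% lost rank by at least 10 points, and at promoters 0.970 and 1.96% did. With no minimum gap the nearer intergenic shares were 17.6 and 18.6%. The far intergenic shares were thus near those of all regions and of nearer intergenic regions, with a lower share of gains than the latter. Among the gains 7 of 28 (25%, 12.7 to 43.4%) held an AP-1 word and 14 (50%) a GATA word, and among the losses 3 of 40 (7.5%, 2.58 to 19.9%) and 13 (32.5%) did.

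The region with the widest gain was chr10:7070096-7070680, nearest SFMBT2, a Polycomb group gene. Its pileups were 9 and 12 with PBS and 19 and 21 with SCF, and its ranks were 23.0 and 32.7 with PBS and 62.4 and 83.4 with SCF. The window holds 2 AP-1 words, 2 GATA words and a TAL1-GATA pattern. The next gains held GATA words and no AP-1 word. They were chr7:7081814-7082493, nearest the glycosyltransferase gene C1GALT1 (12 and 19, then 29 and 20), chr4:79586415-79586893, nearest the kinase gene BMP2K (13 and 12, then 16 and 16), and chr7:66918602-66919568, nearest the tRNA-modifying enzyme gene TYW1 (8 and 10, then 12 and 11). Their SCF pileups were all above their PBS pileups, by 1 count at the narrowest.

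The widest losses were at similar pileups. The region chr20:52367487-52368086, nearest the zinc finger gene ZNF217, had 17 and 19 with PBS and 8 and 8 with SCF, and ranks of 63.2 and 61.0, then 16.9 and 24.3. The region chr9:118158482-118159044, nearest the tenascin gene TNC, had 17 and 20, then 9 and 9, with 2 GATA words and a TAL1-GATA pattern. The region chr2:117526294-117527152, nearest the RNA helicase gene DDX18, had 21 and 15, then 8 and 7, in a window of 26.9% GC. The fourth loss, chr10:42596893-42597206, nearest ZNF33B, had 24 and 30, then 12 and 12, in sequence with 11 placements and 385 bp from a gap. The PBS pileups were above the SCF pileups in all 4 losses. These counts were not scaled, and the median pileup of all peaks was 23 and 27 with PBS and 23 and 20 with SCF.

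Far intergenic regions were spread unevenly over intervals free of protein-coding genes, in which non-coding genes can lie. In all, 895 intervals between protein-coding genes held at least 1, and 25 intervals with 10 or more held 350 regions (13.8%). The median density over intervals was 3.96 regions per Mb. Densities are over the full interval, although its parts within 100 kb of a protein-coding start cannot hold such regions. Densities of short and long intervals are thus not directly comparable. The interval between CD83, a dendritic cell surface protein, and JARID2, a Polycomb cofactor, on chromosome 6 held 31, of which 14 were called in all 4 libraries and 15 held a GATA word, in 1109 kb (27.9 per Mb). The interval between LY86 and RREB1, a zinc finger factor of Ras signaling, held 25 in 453 kb, or 55.2 per Mb, with 8 called in all 4. The interval between MYC and GSDMC on chromosome 8 held 23 in 2005 kb (11.5 per Mb), that between CITED2 and NMBR on chromosome 6 held 21 in 2684 kb (7.83 per Mb), and that between TMEM132B and TMEM132C on chromosome 12 held 17 (6.53 per Mb). Nearness to a gene does not show that a region acts on it.

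Rank gains were found in the interval between MYC and GSDMC. MYC encodes a transcription factor that drives cell growth. Of the 23 regions in the interval 12 were called in all 4 libraries, 3 gained rank, none lost rank and 1 was SCF-only. Among all 901 far intergenic regions called in every library, 3.11% gained and 4.44% lost rank. Whether 3 of 12 differs from that share was not tested. Among the 5 fullest intervals, those of LY86 and of CITED2 held 1 gain each, that of CD83 held 1 loss, and that of TMEM132B held neither. The region of highest rank nearest MYC, chr8:129026449-129027378, lay 277 kb from the MYC start and inside the non-coding gene PVT1. Its pileups were 74 and 140 with PBS and 65 and 89 with SCF, which overlapped, and it held a GATA word. The 3 gains and the SCF-only region were chosen for naming after their values were seen. At chr8:128871902-128872516 pileups were 13 and 17, then 23 and 22, with AP-1, NF-E2 (GCTGAGTCA, which holds an AP-1 word) and KLF (CCACACCC) words. At chr8:130569790-130570352, with a GATA word, they were 11 and 25, then 21 and 25, and at chr8:128929200-128930263 they were 21 and 32, then 32 and 28. In these 2 regions the ranks were separate but the unscaled pileups overlapped, which does not show equal signal. The SCF-only region chr8:128938322-128938745 had 18 and 13 and an AP-1 word.

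Of 83 genes of erythroid regulation, Kit signaling and related factors that were listed for this purpose, 24 were the nearest gene of at least 1 far intergenic region, and 11 of a region called in all 4 libraries (MYC, KIT, KLF3, IKZF2, JUN, MAF, ID2, ID4, SMAD6, ZEB2 and CITED2). The 24 genes accounted for 105 regions (4.14%). MYC had 20 (11 called in all 4), CITED2, a coactivator that binds CBP and p300, 18 (7), ID2, an inhibitor of helix-loop-helix factors, 14 (6), and ZEB2, a zinc finger repressor, 8 (5).

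Near the receptor gene KIT itself 4 far intergenic regions were found. The region chr4:55408558-55409295, 115 kb from the start, had pileups of 38 and 42 with PBS and 29 and 41 with SCF and ranks of 65.6 and 62.8, then 59.3 and 73.5, which overlapped. The other region named here, chr4:55339202-55340060, was PBS-only, with pileups of 9 and 15 and a GATA word, and it was chosen after its values were seen. Near JUN, which encodes an AP-1 subunit, the highest of 6 regions, chr1:59369110-59369865, had 36 and 59, then 41 and 43. Near KLF3, an erythroid repressor of the KLF family, chr4:38384009-38384627 had 28 and 46, then 25 and 39, with GATA and TAL1-GATA motifs. Treatments overlapped at each of these regions that were called in all 4 libraries. Near MAF, a bZIP factor, chr16:79804111-79804895 had pileups of 30 and 33, then 27 and 32, which overlapped, and ranks of 70.1 and 74.7, then 78.8 and 82.7, which did not. Near ID4, of the same family as ID2, chr6:19968304-19968933 had 33 and 32, then 31 and 36. Near the Ikaros-family gene IKZF2, chr2:213825854-213826512 had 13 and 16, then 17 and 10, and near SMAD6, an inhibitor of BMP signaling, chr15:67143301-67143979 had 13 and 21, then 13 and 9. The pileups of the treatments overlapped at these regions.

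The regions nearest ZEB2 reached high ranks far from the gene. At chr2:146450496-146451219, 1172 kb from the ZEB2 start and printed above, pileups were 30 and 35 with PBS and 32 and 55 with SCF, and ranks were 93.3 and 87.5, then 93.0 and 99.1. Near ID2, chr2:8665476-8666681 had 36 and 50, then 33 and 35, and near CITED2, chr6:139817991-139818947 had 29 and 36, then 19 and 30. Other regions near these genes were called for treatment in both directions, and they were chosen for naming after their values were seen. At chr6:139969329-139970070, nearest CITED2 and with AP-1 and GATA words, ranks were 61.0 and 58.9 with PBS and 78.9 and 76.6 with SCF and pileups were 23 and 28, then 34 and 30. At chr2:8452971-8453525, nearest ID2 and with an AP-1 word, ranks were 31.7 and 17.4, then 45.4 and 44.5. The opposite direction was found at chr2:145881383-145882242, nearest ZEB2 and with AP-1 and GATA words, a rank loss with pileups of 11 and 19, then 7 and 8. It was also found at the PBS-only regions chr6:139909161-139909746, nearest CITED2 (pileups 13 and 19), and chr2:8369730-8370142, nearest ID2 and with AP-1 and NF-E2 words (9 and 12).

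DUSP5 encodes a nuclear phosphatase of ERK. No far intergenic region lay within 300 kb upstream of its start site, and none could. The starts of MXI1, SMNDC1 (193 kb upstream) and DUSP5 leave no position there over 100 kb from a protein-coding start. Accessible regions of other classes did lie there. One of them, chr10:112034779-112035458, 223 kb upstream and inside a gene body, was called in all 4 libraries. Its ranks were 69.9 and 74.8 with PBS and 42.1 and 61.8 with SCF.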

How the data were processed

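ATAC-seq was performed on HUDEP-2 cells, and 4 of the 8 samples (sgControl with PBS or SCF) were used. The other 4, with sgEGR1, were not analysed here. The authors ran a paired-end ATAC-seq pipeline and called narrow peaks per library. Their processing notes name Bowtie2, SAMtools and hg38, whereas the deposited lists carry an hg19 header, and all coordinates are hg19. For each peak the deposited values are the fold enrichment at the summit (a ratio to local background), the −log10 p-value, the −log10 q-value and a score. Caller settings are not given in the sources used here. Replicate numbers follow the sample labels, although peak names in the lists carry the numbers 2 and 3 for PBS and 1 and 2 for SCF.

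The fold enrichment was ranked within each list (percentile, 100 highest). The ratio and the −log10 p-value together gave the whole-number summit pileup of 100% of peaks (relative error under 0.0001). Read totals are unknown, so that the counts behind a peak limit the precision. Motif words were searched on both strands within 100 bp of each summit. Gene starts and bodies came from GENCODE release 44 (GRCh37), copies of windows from minimap2 2.31 and mitochondrial matches from blastn 2.17.0. Tables were made with pandas 2.3.3, numpy 2.4.6, scipy 1.17.1 and pysam 0.24.0. Treatments were compared over libraries by two-sided exact permutation tests and classes by exact sign flips, with Benjamini-Hochberg adjustment. Scripts were tested on simulated peaks.

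The regions named were the 6 of highest mean rank among regions called in all 4 libraries, the 4 widest gains and losses, the 3 highest SCF-only and PBS-only regions, the highest with each of 4 motifs, the most distant, the 5 fullest intervals, those upstream of DUSP5 and the highest near each listed gene. The 6 highest without copies or gaps were added after the data were seen. The regions and the gene and motif lists were chosen with earlier results of these data known. Some marker genes and 1 named SCF-only region are not reported here. Repeat content was not computed, because the reference used does not mark repeats. Alternatives were other distance limits, windows, rank gaps, a stricter q-value, equal numbers of peaks, leaving out each library and pairing by replicate number.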

Additional observations from a re-analysis of the deposited data

How the results depend on the processing

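Most values kept their direction under most alternatives (129 stayed within their limits, 32 moved and 4 reversed), but differences between treatments rest on 2 libraries against 2 and cannot pass 0.05 by any setting. The 129 include the pairings by replicate number, which cannot change a difference. With a distance limit of 50 kb there were 4586 regions, 96 SCF-only, 147 PBS-only, 52 rank gains and 82 rank losses. With 200 kb there were 1236, 21, 36, 9 and 22. With a −log10 q-value of at least 5, 1599 regions were found, 35 of them SCF-only and 77 PBS-only, with fewer peaks entering by construction. A rank gap of 5 points gave 62 gains and 73 losses, and 20 points gave 5 and 10. Without PBS replicate 1, PBS replicate 2, SCF replicate 1 or SCF replicate 2, 95, 138, 375 and 169 regions were SCF-only, 413, 256, 128 and 222 PBS-only, 80, 137, 166 and 67 gained and 140, 77, 99 and 208 lost rank, since 1 library then stood for a treatment. The SCF minus PBS difference in the share of far intergenic peaks went from -0.551 to 0.153 percentage points on leaving out a library (0.153 without SCF replicate 1), and that in mean rank from -5.17 to 2.81 (1.68 without PBS replicate 2, 2.81 without SCF replicate 1). The GATA difference between treatments was -0.527 with 250 bp on each side of the summit, and the cause was not tested. The weighting by GC content was chosen after seeing the data, and under it the far minus nearer differences kept their direction (8.58 for GATA, 2.69 for AP-1, -1.84 for CTCF).

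Paired by replicate number (a replicate block), the SCF minus PBS differences were -0.199 (share), -1.06 (mean rank), 3.22 (AP-1) and 2.54 (GATA), with exact permutation p of 0.5, 1, 0.5 and 0.5, where 0.5 is the smallest that 2 pairs allow. The deviations of same-numbered libraries from their treatment means had a correlation of 0.0532 over 901 regions. A shift common to all regions does not enter this correlation. Same-numbered libraries were alike in peak number (30240 with PBS and 29269 with SCF for replicate 1, 33616 and 33324 for replicate 2). The labels do not tie the numbers to a shared culture, and the numbers in the peak names differ from them. Whether same-numbered libraries shared a batch was not tested. The block leaves each difference as it was by construction, and the calls do not use it.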
